A study of Mus musculus with 6 samples.

Results

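AP-1 is a family of dimeric transcription factors, and 8 of its genes were followed here in mouse retina: the Fos group (Fos, Fosb, Fosl1 and Fosl2), the Jun group (Jun, Junb and Jund) and Atf3. Members were all probe sets whose single gene symbol in the platform annotation is one of these 8 names. This gave 12 of the 45037 probe sets and 8 of the 18193 named genes, with 4 genes at 1 probe set and 4 at 2. Retinal RNA was hybridised to 6 single-colour Affymetrix arrays, 3 of prCAD mutant and 3 of wild type mice. The prCAD mutants are knockouts of photoreceptor cadherin, encoded by Cdhr1. The wild type mice were of strain 129, and no strain is stated for the mutants in the labels used. All mice were about 4 weeks old, and retinas of 3 mice were pooled for each array. Replicate error therefore means variation from pool to pool.

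Jun and Fos proteins pair through leucine zippers, and the dimer binds a short palindromic site in promoters and enhancers. Fos proteins need a Jun partner, while Jun proteins can also pair with each other or with ATF proteins. Most members are immediate early genes: stimulation of a cell through MAP kinases, calcium or cytokines switches them on within minutes, without new protein synthesis. In the retina they are known to respond to light, injury and axon damage.

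The targeted gene was checked first. The Cdhr1 probe set read 3.94, 4.20 and 4.34 in prCAD mutant retina, against 11.32, 11.36 and 10.98 in wild type retina, on the log2 scale of the authors' RMA values (limma, adjusted p = 2.18e-05). The labels do not say whether the deletion covers this probe set. The arrays had medians of 4.74 to 4.79 and a common median of 4.76, below which a level is called dim here. Wild type replicate 3 and prCAD mutant replicate 3 had the lowest mean correlation with the other 5 arrays, 0.978 and 0.981, against 0.982 to 0.988 for the rest. The median difference of the lens markers was 1.80 between these 2 arrays, and 0.08 and 0.18 in the other pairs of the same number. Retina identity markers were present: all 10 that were measured averaged above the median, with a median difference of -0.20 (2 higher and 8 lower in the mutant). The rod arrestin gene Sag read 13.45, 13.32 and 13.44 in prCAD mutant, against 13.25, 13.13 and 13.06 in wild type arrays. Opn1mw, a cone opsin gene, read 8.73, 8.94 and 8.80 in mutant, against 9.11, 9.40 and 8.88 in wild type arrays.

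Of the 12 AP-1 probe sets, 0 passed the test over all probe sets at an adjusted p of 0.05, by limma on group alone or with the replicate number as a block. The same test called 0.0111% of all probe sets, and 0.0333% with the block. At an unadjusted p under 0.05 there were 4 AP-1 probe sets, against 3.02% of all (1.68% higher in the mutant), and with the block 5, against 7.6% of all. All of these lay higher in prCAD mutant retina. Of the 12, 3 had every mutant array above every wild type array, a pattern found in 4.73% of all probe sets, and 0 had the reverse (3.07% of all). The 3 were those of Junb, Atf3 and the dimmer Fosl1 probe set. Differences were above 0 for 9 of the 12 and in each of the 3 pairs of same-numbered arrays for 7 (53.6% and 17% of all probe sets). The median difference was 0.17 for the AP-1 probe sets and 0.01 for all. The members were chosen with results of these data known.

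**Figure D1:**
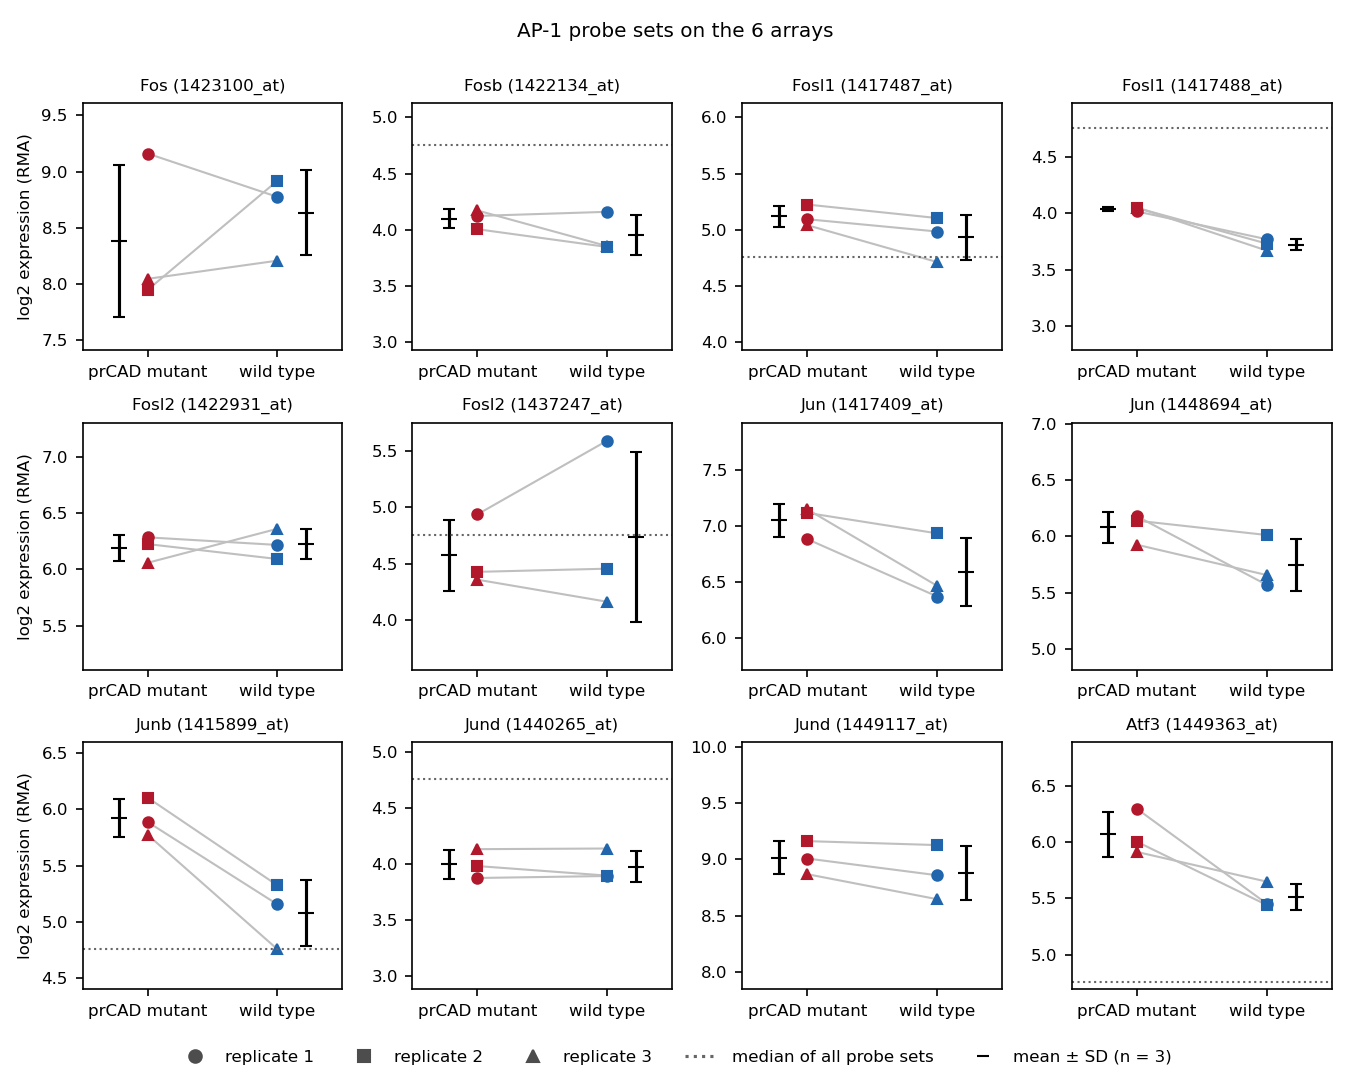
Each panel shows 1 AP-1 probe set, with log2 RMA expression on the vertical axis (the same span of log2 units in each panel), prCAD mutant arrays in red on the left, wild type arrays in blue on the right, grey lines joining same-numbered arrays, and bars for mean ± SD (n = 3). Mutant and wild type arrays are apart for Junb, Atf3 and Fosl1 (1417488_at), and mixed for Fos.

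Junb, a Jun family member that activates weakly on its own and can oppose Jun, had the largest difference. Its 1 probe set read 5.89, 6.11 and 5.77 in prCAD mutant retina, against 5.15, 5.32 and 4.75 in wild type retina. The groups did not overlap, and the lowest array was wild type replicate 3. Means were 5.92 ± 0.17 in mutant and 5.08 ± 0.29 in wild type arrays (SD, n = 3 each), a difference of 0.85 (SE 0.17, 95% interval 0.45 to 1.24) or 1.80-fold. The pairs gave 0.73, 0.78 and 1.02. Junb ranked 82 by p among all probe sets, with an adjusted p of 0.784 (limma), and with the replicate block it ranked 42, with an adjusted p of 0.0871. Without wild type replicate 3 the difference was 0.68 (adjusted p = 0.888), and without both arrays of number 3 it was 0.76 (adjusted p = 0.181).

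Atf3, a bZIP factor of the ATF group that pairs with Jun proteins and is induced in stressed and axotomised neurons, was the next. It read 6.30, 6.004 and 5.91 in prCAD mutant retina, against 5.45, 5.44 and 5.65 in wild type retina, again without overlap. Means were 6.07 ± 0.20 in mutant and 5.51 ± 0.12 in wild type arrays (SD, n = 3 each). The difference of 0.56 (SE 0.13, 95% interval 0.25 to 0.86), or 1.47-fold, had an adjusted p of 1.00 (limma), and of 0.449 with the block. Pair differences were 0.84, 0.56 and 0.26, so the third pair was the closest. Without both arrays of number 3 the difference was 0.70 (adjusted p = 0.214).

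The 250 bases before the starts of 4 members are shown so that the Junb and Atf3 promoters, whose transcripts were higher in every mutant array, can be set beside those of Jun and Fos. They are RefSeq sequences of build GRCm38.p6, not of these mice, and read 5′ to 3′ on the gene's strand. Junb lies at chr8:84978749-84978998 (minus strand), Atf3 at chr1:191183334-191183583 (minus), Jun at chr4:95052223-95052472 (minus) and Fos at chr12:85473640-85473889 (plus). Capitals mark TGACG, the core of a CREB and ATF site, on either strand, TTACGTCA in Atf3 and TGACATCA in Jun.
Junb: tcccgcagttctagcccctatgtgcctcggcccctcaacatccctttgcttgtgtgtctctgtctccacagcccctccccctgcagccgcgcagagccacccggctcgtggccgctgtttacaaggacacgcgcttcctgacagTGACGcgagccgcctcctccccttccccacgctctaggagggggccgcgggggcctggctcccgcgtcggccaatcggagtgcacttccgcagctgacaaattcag
Atf3: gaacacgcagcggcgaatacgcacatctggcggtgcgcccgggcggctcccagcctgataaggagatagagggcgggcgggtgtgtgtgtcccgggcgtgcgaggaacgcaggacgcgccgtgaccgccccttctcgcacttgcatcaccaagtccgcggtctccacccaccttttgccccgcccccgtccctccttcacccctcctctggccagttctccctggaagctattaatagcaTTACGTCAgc
Jun: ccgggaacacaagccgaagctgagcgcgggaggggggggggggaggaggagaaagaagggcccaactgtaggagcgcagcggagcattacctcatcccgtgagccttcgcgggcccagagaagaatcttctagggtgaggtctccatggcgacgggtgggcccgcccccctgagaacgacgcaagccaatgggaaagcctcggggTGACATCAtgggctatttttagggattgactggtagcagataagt
Fos: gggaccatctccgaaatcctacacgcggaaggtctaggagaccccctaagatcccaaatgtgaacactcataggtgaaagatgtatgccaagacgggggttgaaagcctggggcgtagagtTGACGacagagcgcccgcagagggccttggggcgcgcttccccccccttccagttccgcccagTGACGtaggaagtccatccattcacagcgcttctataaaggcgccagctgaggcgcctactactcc

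Of the 8 genes, 7 had a promoter sequence. On both strands of these 250 bases, TGACG was found in Junb, Atf3, Fosb and at 2 places in Fos, and it occurs in 17.8% of 32851 promoters of the same length. In Junb it lies at bases -106 to -102 from the start, and in Atf3 at -7 to -3, inside TTACGTCA, a motif held by 0.447% of the promoters. In Fos the copies lie at -129 to -125 and -66 to -62. TGACATCA, at -45 to -38 of Jun, occurs in 2.93%. The AP-1 site TGANTCA was found in 0 of the 7 windows (6.75% of all), as were the full site TGACGTCA (1.55%), the STAT-type motif TTCNNNGAA (7.02%) and the CArG box of serum response factor (1.47%). TTACGTCA and TGACATCA were picked after the sequences had been seen. A match describes letters only, and bases outside these windows were not searched.

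Jun, the partner shared by most AP-1 dimers and the target of the JNK kinases, was higher on average with overlapping groups. Its brighter probe set (1417409_at) read 6.88, 7.11 and 7.15 in prCAD mutant retina, against 6.37, 6.93 and 6.47 in wild type retina. Only wild type replicate 2 reached the mutant range. The difference was 0.46 (SE 0.17, 95% interval 0.07 to 0.85, adjusted p = 1.00, and 0.519 with the block), with 0.51, 0.18 and 0.68 in the pairs. The other Jun probe set (1448694_at) read 6.18, 6.14 and 5.92 in mutant, against 5.57, 6.01 and 5.65 in wild type arrays. It differed by 0.34 (95% interval -0.0004 to 0.67), and both Jun probe sets lay higher in the mutant in every pair. Jund, the member with steady expression in many resting cells, read 9.01, 9.16 and 8.87 in mutant, against 8.86, 9.13 and 8.65 in wild type arrays at its brighter probe set. It differed by 0.14 (95% interval -0.21 to 0.48), and its dim probe set by 0.02 (-0.25 to 0.29).

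Fos, the classic immediate early gene, did not follow the genotype. It read 9.16, 7.95 and 8.05 in prCAD mutant retina, against 8.77, 8.92 and 8.21 in wild type retina. The highest array and the 2 lowest were all mutant. Means were 8.38 ± 0.67 in mutant and 8.63 ± 0.38 in wild type arrays (SD, n = 3 each), a difference of -0.25 (SE 0.35, 95% interval -1.07 to 0.57, adjusted p = 1.00). The pairs gave 0.39, -0.97 and -0.16. Without mutant replicate 1 the difference was -0.64, and without mutant replicate 2 it was -0.03. The range over the 6 arrays was 1.21, and 3.91% of all probe sets had a range as large.

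The other Fos group members differed little or were dim. Fosb, a Fos relative with a long-lived splice form, read 4.12, 4.01 and 4.17 in prCAD mutant, against 4.16, 3.85 and 3.85 in wild type arrays, all below the common median. It differed by 0.15 (95% interval -0.13 to 0.42). Fosl1, which encodes FRA-1, read 5.09, 5.22 and 5.04 in mutant, against 4.98, 5.10 and 4.71 in wild type arrays at its brighter probe set (1417487_at), a difference of 0.19 (95% interval -0.11 to 0.48). At the dimmer one (1417488_at) the values were 4.02, 4.05 and 4.05 in mutant, against 3.77, 3.73 and 3.67 in wild type arrays. These groups did not overlap, with SDs of 0.02 in mutant and 0.05 in wild type arrays, and differed by 0.32 (SE 0.08, 95% interval 0.12 to 0.51, adjusted p = 1.00). All 6 values lie below the common median, where background limits a difference.

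Fosl2, which encodes FRA-2, read 6.29, 6.23 and 6.06 in mutant, against 6.22, 6.09 and 6.36 in wild type arrays. Its difference was -0.03 (95% interval -0.30 to 0.23). The second Fosl2 probe set (1437247_at) averaged below the common median, with 4.94, 4.43 and 4.36 in mutant, against 5.595, 4.46 and 4.16 in wild type arrays. It differed by -0.16, or by 0.27 without wild type replicate 1, the highest array.

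**Figure D2:**
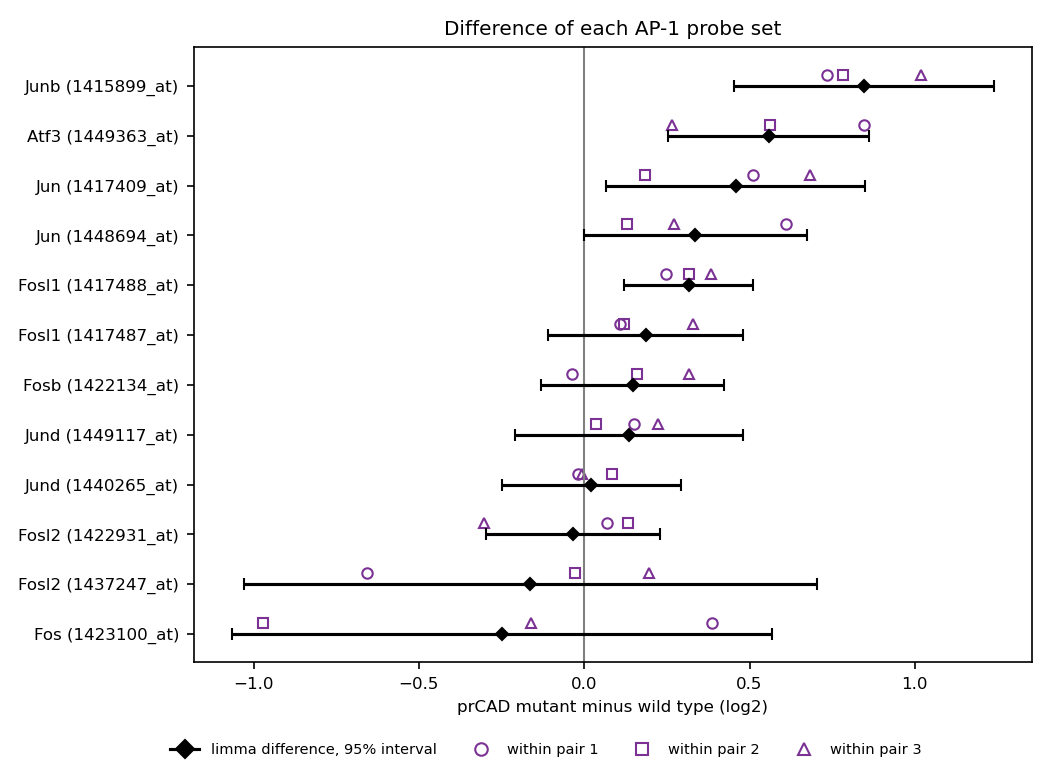
Black diamonds and bars give the prCAD mutant minus wild type difference (log2) of each AP-1 probe set with its 95% interval from limma, and open purple symbols the difference within each pair of same-numbered arrays. The intervals of Junb, Atf3, 1 Jun and 1 Fosl1 probe set lie above 0, while that of Fos runs from -1.07 to 0.57.

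Fos varied over the arrays together with a few other immediate early genes. Dusp1, a phosphatase that switches off MAP kinases and is itself an immediate early gene, read 8.10, 6.66 and 6.86 in prCAD mutant, against 7.9995, 7.93 and 7.11 in wild type arrays. It was high on the same 3 arrays as Fos. Its Pearson correlation with Fos over the 6 arrays was 0.979, the third highest among 11807 genes above the common median, after Ubqln2, a proteasome shuttle gene (0.986), and Acad9, a mitochondrial gene (0.984). Egr1, a zinc finger factor, read 8.69, 7.52 and 7.46 in mutant, against 8.59, 9.40 and 7.59 in wild type arrays (0.899 with Fos). Nr4a1, an orphan nuclear receptor, correlated with Fos at 0.808. The immediate early list as a whole did not: its 18 genes above the common median had a median correlation with Fos of 0.32, against 0.30 for all 11807 genes. The 6 other AP-1 genes above the common median had correlations with Fos of -0.29 to 0.20. These values describe 6 arrays that share 2 genotypes and 3 numbers, and 65 of the 11807 genes exceeded 0.9 with Fos. Dusp1 and Egr1 differed between the groups by -0.47 (SE 0.41) and -0.64 (SE 0.50), both within their spread.

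The genes most like Junb over the 6 arrays were A2m, which encodes the protease inhibitor alpha-2-macroglobulin (0.987), the membrane protein gene Tmem98 (0.986) and the interferon regulatory factor gene Irf7 (0.986). A2m read 6.43, 6.52 and 6.06 in prCAD mutant, against 5.27, 5.57 and 4.43 in wild type arrays. Like Junb, it was lowest in wild type replicate 3. Those most like Atf3 were Ddx50, an RNA helicase gene (0.993), the kinesin gene Kif13a (0.984) and the histone methyltransferase gene Setdb2 (0.980). Each of these genes also had every mutant array above every wild type array, so its correlation includes the difference between the groups. Correlations above 0.9 were held by 182 genes with Junb and 101 with Atf3 (1.54% and 0.855% of 11807 genes).

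**Figure D3:**
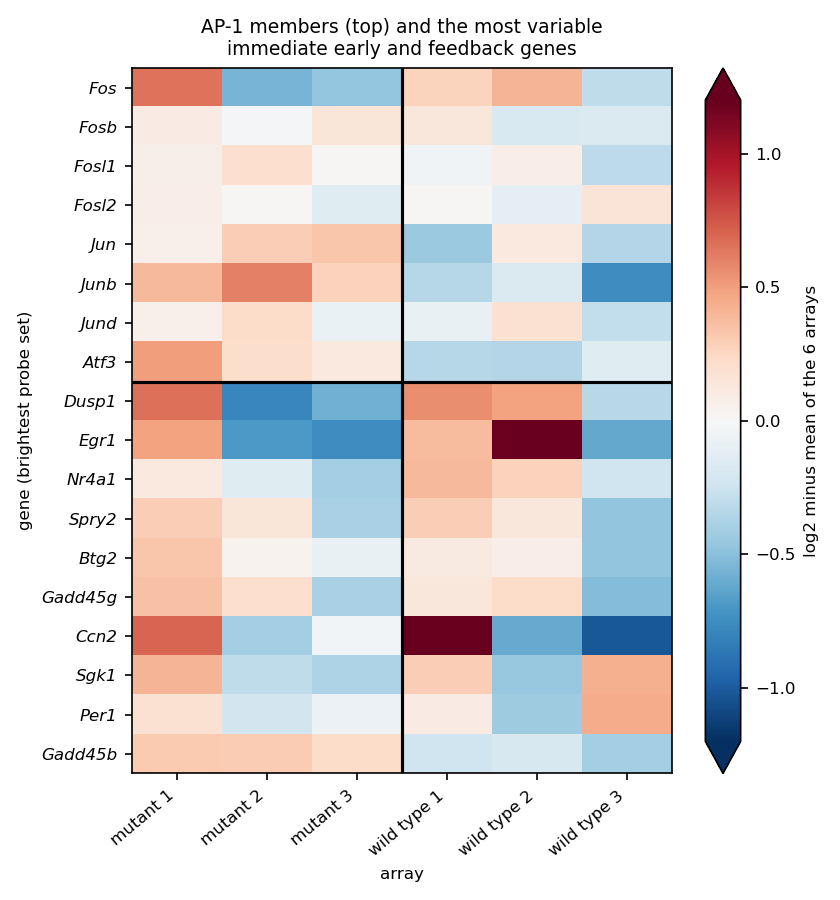
Colours give log2 expression minus the gene's mean over the 6 arrays (red above, blue below), with prCAD mutant arrays left of the vertical line and wild type arrays right of it. The 8 AP-1 genes are at the top at their brightest probe sets, and below are the 10 immediate early and feedback genes above the common median with a range of at least 0.7. Fos, Dusp1 and Egr1 are red in mutant 1 and wild type 1 and 2, while Junb, Atf3 and Gadd45b are red in all mutant arrays.

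In 5 lists of genes around AP-1, each gene taken at its brightest probe set, 0 of 108 measured list entries passed over all probe sets, with or without the block (0.0165% and 0.044% of all genes). At an unadjusted p under 0.05 there were 6 higher and 0 lower in prCAD mutant retina (2.33% and 1.09% of all genes). With the block, the lists of upstream kinases, feedback inhibitors and other immediate early genes each had 2 higher and 1 lower. The other bZIP factors then had 1 higher and 0 lower, and the genes with AP-1 sites 4 and 0. Among all 18193 genes, the block gave 887 higher and 467 lower. Of 117 entries, 9 are not named here.

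Among kinases and serum response factors upstream of AP-1, the median difference of 20 genes was 0.05, against 0.02 for all genes. Every mutant array lay above every wild type array for 1 and below for 3 (5.89% and 2.88% of all genes). Mapk9, which encodes the kinase JNK2, read 7.33, 7.22 and 7.399 in mutant, against 7.82, 7.51 and 7.45 in wild type arrays, a difference of -0.28 (SE 0.12, adjusted p = 1.00). Rps6ka5, a kinase of CREB and histone H3, differed by -0.17 (SE 0.08) and Map3k1, a kinase above JNK, by 0.27 (SE 0.16). Srf, the serum response factor gene, differed by 0.19 (SE 0.10), and by 0.04 with overlapping groups at its other probe set.

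In the list drawn up as feedback inhibitors, 3 of 18 genes lay above without overlap and 0 below (5.89% and 2.88% of all genes), at a median of 0.04. The 3 were Gadd45b, Dusp8 and Gadd45a, which differed by 0.13 (SE 0.09). Whether any of them acted as an inhibitor here was not tested. Gadd45b, a stress-response gene whose protein restrains JNK signalling, read 6.34, 6.33 and 6.25 in mutant, against 5.78, 5.83 and 5.62 in wild type arrays. Its difference of 0.56 (SE 0.10) had an adjusted p of 0.538, and 0.198 with the block, while its other probe sets differed by 0.83 and 0.05. Dusp8, a JNK phosphatase, differed by 0.16 (SE 0.08), Spry1, a Ras pathway inhibitor, by 0.20 (SE 0.12) and Dusp4, an ERK phosphatase, by -0.29 (SE 0.15). The other Dusp8 probe sets differed by 0.27 without overlap and by 0.05 with overlapping groups.

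The 26 other immediate early genes had a median difference of 0.01, with 14 above and 12 below 0. Of the 26, 1 lay above without overlap and 0 below (5.89% and 2.88% of all genes). It was Klf4, a zinc finger factor, which differed by 0.26 (SE 0.11) at levels below the common median. The other Klf4 probe set, also dim, differed by -0.03 with overlapping groups. Ccn1, a matrix-associated protein gene, differed by 0.32 (SE 0.17) and Klf10 by 0.16 (SE 0.12), both dim, while Nr4a1 differed by -0.29 (SE 0.20). Other Ccn1 probe sets, also dim, differed by 0.19, 0.11 and -0.05. Among 16 other bZIP factors the median was 0.06. Nfe2l2, which encodes the oxidative stress factor NRF2, differed by 0.24 (SE 0.09) and Batf3 by 0.19 (SE 0.08), though Batf3 was dim. These were the 2 that lay above without overlap, with 0 below (5.89% and 2.88% of all genes). The other Nfe2l2 probe set, also dim, differed by 0.02 with overlapping groups. Batf differed by 0.17 (SE 0.11). Nrl, the rod-determining Maf factor, read 12.004, 11.85 and 11.91 in mutant, against 12.13, 11.97 and 12.24 in wild type arrays, a difference of -0.19 (SE 0.11).

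Genes known to carry AP-1 sites in promoters or enhancers had a median difference of 0.07 over 28, with 6 above and 1 below without overlap (5.89% and 2.88% of all genes). The median was 0.027 without wild type replicate 3. Gfap, the glial intermediate filament gene, read 7.84, 7.76 and 7.32 in mutant, against 6.03, 6.69 and 5.40 in wild type arrays. It differed by 1.60 (SE 0.32, adjusted p = 0.791, and 0.0816 with the block). A dimmer Gfap probe set differed by 2.33 (adjusted p = 0.217) and rose with the block (adjusted p = 0.00598), while the remaining Gfap probe set, below the common median, differed by 0.17 with overlapping groups. Vim, its partner filament of Müller cells, differed by 0.63 (SE 0.24), Cd44, a hyaluronan receptor gene, by 0.62 (SE 0.18) and Lif, a cytokine of the interleukin 6 family, by 0.37 (SE 0.15) at dim levels. The Vim pairs gave 0.45, 0.19 and 1.25, and its lowest array was wild type replicate 3. Other Vim probe sets differed by 0.71 and 0.67. Other Cd44 probe sets differed by 0.58, 0.22 and -0.01. The Lif pairs gave 0.03, 0.30 and 0.78, with wild type replicate 3 the lowest array. The other Lif probe set, also dim, differed by 0.25 with overlapping groups. Gfap and Vim are also glial markers.

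**Figure D4:**
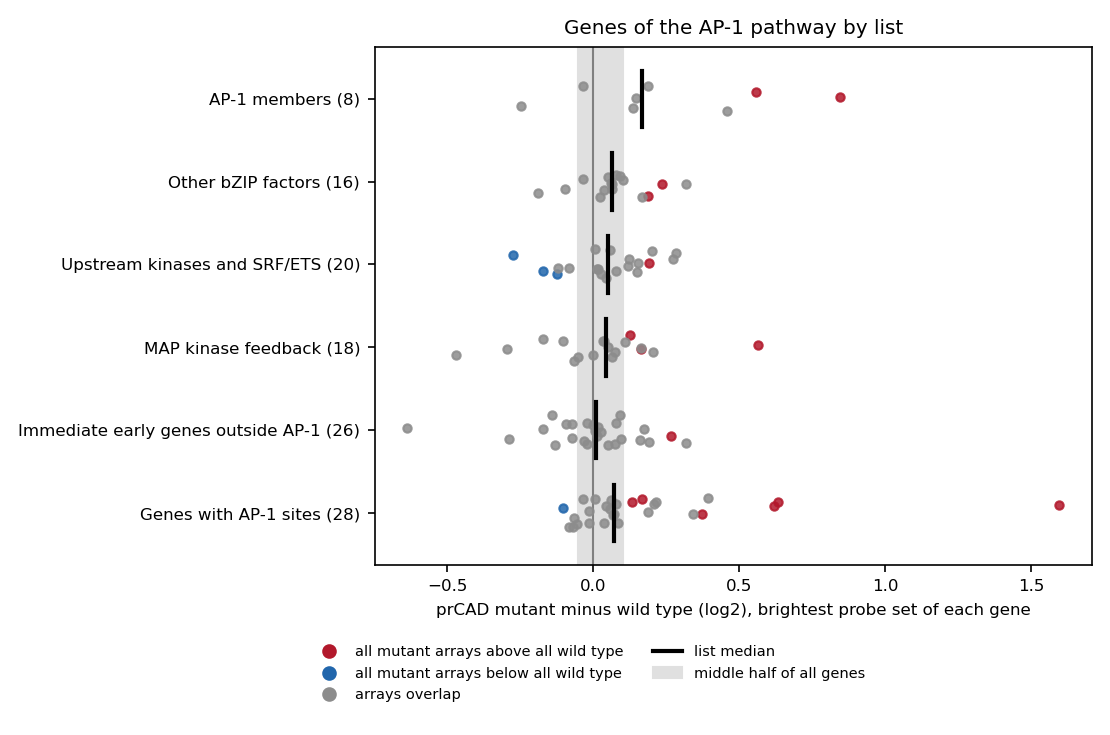
Each point is the prCAD mutant minus wild type difference (log2) of 1 gene at its brightest probe set, coloured by whether the 3 mutant arrays lie above, below or among the 3 wild type arrays, with the list median as a black bar, the number of genes in brackets and the quartile range of all genes in grey. The median is 0.17 for the AP-1 list and 0.01 for immediate early genes outside AP-1.

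Marker levels of some other cell types also differed between the groups in these whole-retina pools. Of the listed markers, 0 passed the test at their brightest probe sets. Over all genes, 10621 of 18193 differences lay above 0 and 7572 below. Here a change in the number of cells of a type and in RNA per cell cannot be told apart. The summed linear signal of 12 pigment epithelium markers was 1839.5 to 2492 in prCAD mutant arrays, against 552 to 1304 in wild type arrays, with 12 of 12 above 0. For 11 microglia and macrophage markers it was 444 to 487 in mutant, against 364 to 393 in wild type arrays. Of these, 10 of 11 lay above 0, and 6 averaged above the common median. For 12 Müller glia and astrocyte markers the sum was 5317 to 6582 in mutant, against 4618 to 5945 in wild type arrays, with 9 above 0. Of 9 ganglion cell markers 8 lay lower, and their sum was 2099 to 2723 in mutant, against 2369 to 3551 in wild type arrays. Lens markers summed to 29936 to 47088 in mutant, against 15070 to 43323 in wild type arrays, and blood and vessel markers to 711 to 958 in mutant, against 767 to 870 in wild type arrays. The sums were apart between the groups for pigment epithelium and microglia markers, and overlapped for the other lists given here. The part of these markers in the AP-1 differences was not tested.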

How the data were processed

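The deposited log2 values came from RMA run by the authors (per the submitters' processing notes, without a version). RMA sets all arrays to a common distribution, so a shift of the whole array is removed. Of 45101 probe sets 64 manufacturer controls were left out, which leaves 45037. Of these 34945 have 1 gene symbol in the platform annotation, 932 carry several and 9160 are unnamed here. Each gene in a list was taken at its brightest probe set on average. Probe sets of different genes were not set against each other by level, and the number of arrays limits the precision of every value.

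Groups followed the sample titles. A strain difference between mutant and wild type mice cannot be told apart from the loss of Cdhr1.

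The test was limma 3.58.1 (lmFit and eBayes, R 4.3.3) with genotype as the only term. P-values were adjusted by Benjamini-Hochberg across the 45037 probe sets, and 0.05 was the threshold. After group means were removed, arrays of the same number correlated at 0.477, 0.469 and 0.563, and 6 of 6 arrays were closest to their own number. The numbers were taken as pairs on this ground, which the labels do not state. SEs are of the fit on group alone.

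The 8 members, the lists and the alternatives were chosen with earlier results of these data known. Named genes were all AP-1 probe sets, Cdhr1, up to 4 genes per pathway list with the smallest p, Sag and Opn1mw among the retina markers, and the 3 genes most correlated with Fos, Junb and Atf3. Dusp1 entered by that last rule. Egr1 and the dimmer Gfap probe set were added with their values known. The rule also names up to 2 genes per other marker list, which are given as lists here. Alternatives were the replicate block, leaving out dim probe sets, a further quantile normalization, array weights, a trended and robust eBayes, averaging a gene's probe sets, leaving out each array, and leaving out both arrays of number 3.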

Additional observations from a re-analysis of the deposited data

How the results depend on the processing

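In all 12 alternatives 0 AP-1 probe sets passed (the 4 dim ones are absent where dim probe sets were left out). Of the genes of the 5 surrounding lists, 0 passed at their brightest probe sets. The adjusted p of Junb ran from 0.0871 with the replicate block to 1.00, and its difference from 0.68 to 0.97. Atf3 ran from 0.45 to 0.70 (adjusted p from 0.161 with array weights to 1.00), and Jun (1417409_at) from 0.35 to 0.63. Neither Junb, Atf3, Jun nor Fos changed sign in any alternative. The near-zero difference of the brighter Fosl2 probe set changed sign in 4 alternatives, and that of the dim Jund probe set in 3. The dimmer Fosl2 probe set, at -0.16, changed sign in 1 and ran from -0.45 to 0.27. Over all probe sets 5 passed, against 15 with the replicate block, 25 with array weights, 16 without both arrays of number 3, and 2 to 9 without single arrays. The block changed no call of an AP-1 probe set or of a list gene at its brightest probe set.

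The median of the 8 AP-1 genes, 0.17, ran from 0.086 (without wild type replicate 3) to 0.27 (without wild type replicate 2) when single arrays were left out, and was 0.107 without both arrays of number 3. That of the upstream kinases, 0.05, ran from -0.023 to 0.157 and was 0.125, above that of AP-1, without both arrays of number 3. That of the feedback inhibitors, 0.04, ran from -0.051 to 0.080, and that of the other bZIP factors, 0.06, from 0.049 to 0.087. That of the genes with AP-1 sites, 0.07, ran from 0.027 (without wild type replicate 3) to 0.105. The cause of these shifts was not tested. With 3 arrays a group, the 95% interval of an AP-1 probe set reached a median of 0.32 to either side of its difference.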

Other observations

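Some immediate early genes varied over the arrays without following the genotype, and they were picked with their values known. Ccn2, a matrix-associated protein gene, read 7.81, 6.71 and 7.09 in prCAD mutant, against 8.48, 6.51 and 6.10 in wild type arrays, a range of 2.38 on the log2 scale. The 2 arrays of number 1 were the highest. Sgk1, a glucocorticoid-induced kinase gene, read 10.37, 9.65 and 9.59 in mutant, against 10.25, 9.50 and 10.38 in wild type arrays. Per1, a clock gene that glucocorticoids also induce, read 7.56, 7.16 and 7.31 in mutant, against 7.48, 6.95 and 7.83 in wild type arrays, and like Sgk1 it was lowest in wild type replicate 2 and highest in wild type replicate 3. Correlations with Fos over the 6 arrays were 0.50 for Ccn2, 0.35 for Sgk1 and -0.02 for Per1. The median for all 11807 genes above the common median was 0.30. Time of day and handling of the mice are not given in the sources used here, and their part in the levels of these genes was not tested.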
